A study of Mus musculus with 6 samples.

Results

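Expression of 10 imprinted growth genes was compared between intact and castrated mouse prostates: Peg10, Sgce, Peg3, H19, Igf2, Igf2r, Meg3, Cdkn1c, Grb10 and Plagl1. They were found by symbol among the 24421 genes of the deposited tables, and all 10 were present. The list was chosen by the measured rise of Peg10 in the castrated samples and by the imprinting of the other genes, so the Peg10 difference is given as a description with no test. The data are RNA sequencing of 6 prostate samples, 2 labelled intact and 4 labelled castrated (castration status Cx). All samples come from 1 mouse model of prostate cancer, with the PB-Cre4 transgene, in which the probasin promoter drives Cre in prostate epithelium to delete a floxed gene there. Both groups carry that deletion, no group lacks it, and other cells of the tissue keep the gene. The labels give neither the age of the animals nor the time since castration. Nor do they say whether each sample is a separate animal, and the spread behind every p-value may therefore be technical.

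Imprinted genes are expressed mainly from the allele of 1 parent, marked by DNA methylation set in the germ line. Many act on growth before birth and are turned down in most tissues after it. Paternally expressed members such as Igf2 mostly favour growth, and maternally expressed members such as Cdkn1c, Grb10 and Igf2r mostly restrain it. Peg10 derives from a retrotransposon, encodes gag- and pol-like proteins through a ribosomal frameshift and is needed for the placenta. In human prostate cancer PEG10 is known for high levels in neuroendocrine and androgen receptor-low tumours. These data count reads per gene and do not tell the parental alleles apart, so imprinting itself was not measured.

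Promoter sequences were taken from RefSeq (build GRCm38.p6). Matching by symbol found 6 of the 10 genes, all but Peg10, Sgce, H19 and Cdkn1c. Below are the 250 bases before a start of Ppp1r9a, the neighbour of Peg10 that passed the test (chr6:4902725-4902974, plus strand), and of Meg3, the member with the lowest difference (chr12:109540746-109540995, plus strand). CG dinucleotides, the sites of DNA methylation, are in capitals.
Ppp1r9a: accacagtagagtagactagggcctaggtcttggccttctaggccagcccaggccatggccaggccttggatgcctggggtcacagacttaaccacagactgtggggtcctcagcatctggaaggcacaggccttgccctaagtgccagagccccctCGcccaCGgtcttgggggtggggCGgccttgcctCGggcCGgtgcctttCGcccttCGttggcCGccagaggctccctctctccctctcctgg
Meg3: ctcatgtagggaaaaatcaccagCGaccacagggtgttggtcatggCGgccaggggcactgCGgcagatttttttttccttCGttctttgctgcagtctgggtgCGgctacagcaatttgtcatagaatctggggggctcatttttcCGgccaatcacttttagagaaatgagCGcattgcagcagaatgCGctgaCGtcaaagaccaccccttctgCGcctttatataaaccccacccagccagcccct
Each gene has 2 windows in the table, and 1 of each is printed. The printed Ppp1r9a window holds 8 CG dinucleotides and the other 35, and the printed Meg3 window holds 10 and the other 0, against a median of 6 over 32851 promoter windows of this length. The androgen receptor half-site AGAACA, searched on both strands, is in none of these 4 windows, and 16.1% of all windows hold it. Among the 11 windows of the 6 matched members, 1 holds the half-site, an upstream window of Igf2. Outside the members, it is in 1 of 2 windows of Casd1 and in the window of Pon3, both neighbours of Peg10. The window of Rian, downstream of Meg3, holds it too, and the remaining windows searched outside the members do not.

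H19 is also the host of miR-675, whose mature forms are shown because reads of H19 and of the microRNA fall in the same exon. The seed, bases 2 to 8, is in capitals and differs between the arms.
mmu-miR-675-5p: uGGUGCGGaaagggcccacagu
mmu-miR-675-3p: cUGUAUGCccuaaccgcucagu
The forms lie at chr7:142577112-142577133 and chr7:142577078-142577099, minus strand, in GRCm38.p6. The table's own row for this microRNA gene had 0 reads in every sample. So did the rows for Mir483 in Igf2 and for Mir770 and Mir1906-1 in Meg3. Mir675, Mir770 and Mir1906-1 share exon bases with their host gene on the same strand, where reads cannot be assigned to one of the genes. The 0 reads are therefore no measure of the microRNAs.

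Values below are rescaled CPM, the deposited counts per 1000000 reads divided by a size factor per sample. A gene was tested when its deposited CPM was at least 1 in at least 2 samples, and the 13898 such genes were fitted with limma on log2(rescaled CPM + 0.5). Differences are castrated minus intact on that scale, where the change of low genes appears too small, with 95% intervals and p-values adjusted over all tested genes by the Benjamini-Hochberg method at a threshold of 0.05. Depth was 43679297 to 59170793 reads counted in genes per sample, so 3 reads, the most that a count of 0 allows, equal 0.0507 to 0.0687 CPM. Intervals on read ratios and these floors cover counting error only. Luminal markers (7 genes, such as Krt8 and Krt18) summed to 5068 and 5459 in the intact pair and 4428 to 6553 in the castrated samples, and the seminal vesicle genes Svs1, Svs4 and Svs6 had 0 reads everywhere.

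Peg10 stood far above the other members in how much it differed between the groups, while the others split between higher, lower and overlapping values. Sgce and H19 were above the intact samples in every castrated sample, Meg3 was below them in every castrated sample, and the groups overlapped for Igf2, Igf2r, Cdkn1c, Grb10, Plagl1 and Peg3. With Peg10 set aside, 8 members could be tested, and limma called 0 of them higher and 0 lower, against 0.698% and 1.27% of all tested genes. edgeR called 0 of the 8. DESeq2, which called 9.31% of the genes it adjusted, called 1 of them, Sgce. At an unadjusted p under 0.05, 2 of the 8 were higher and 1 was lower, where 7.84% and 8.06% of all tested genes were. By edgeR 1.46% of all tested genes were called, and by limma 1.97%. The median difference of the 8 was 0.28 on the log2 scale, beside 0.00 for all tested genes. Groups did not overlap in 2 of the 8 with castrated samples higher and in 1 with castrated samples lower, against 13.4% and 13.2% of all tested genes.

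**Figure D1:**
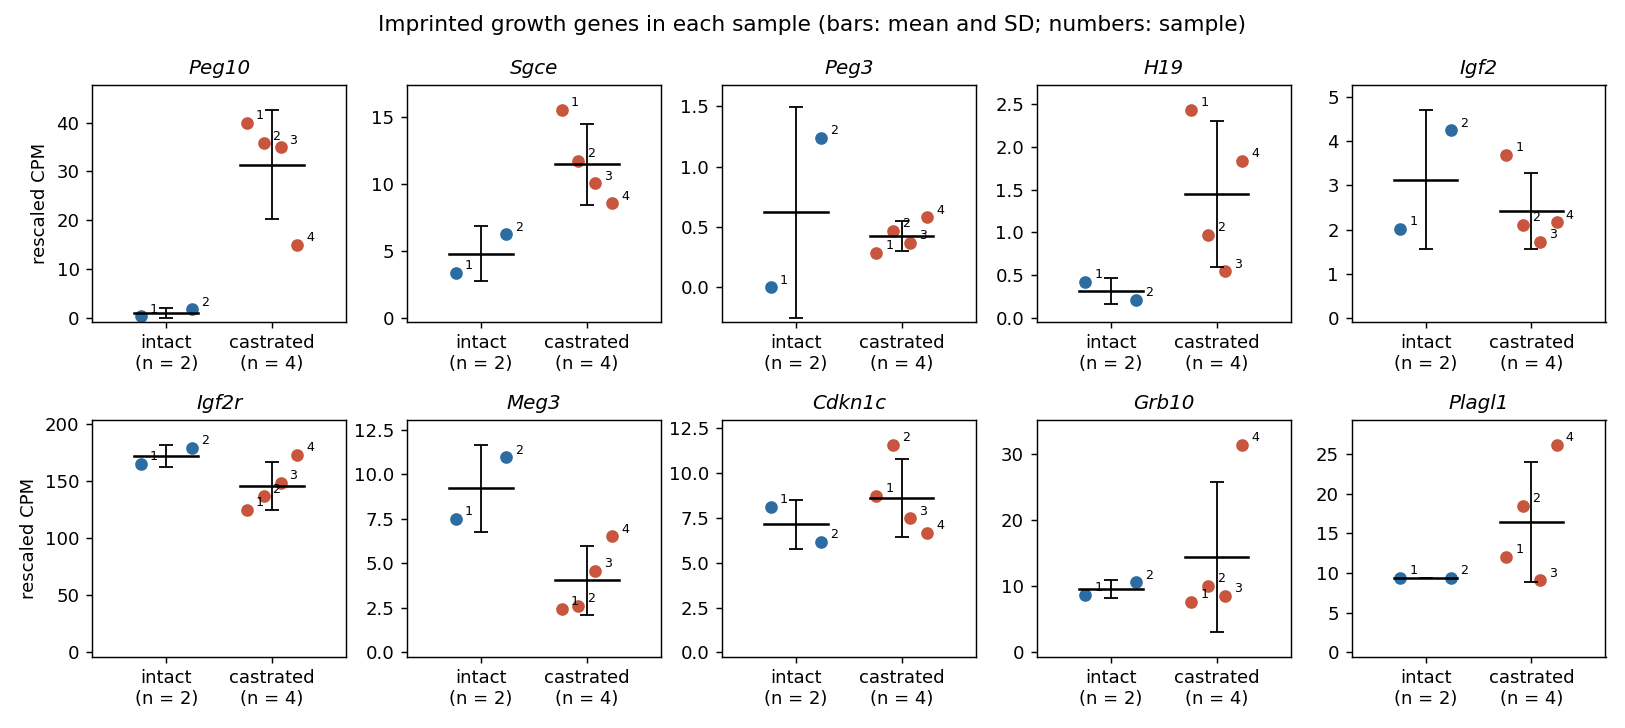
Rescaled CPM (y axis) of each of the 10 genes in the 2 intact (blue) and 4 castrated (red) samples, with the group mean and SD as black bars and the sample number beside each point. Peg10 is 14.9 or more in every castrated sample and 1.68 or less in the intact samples, Meg3 lies lower in all 4 castrated samples, and Grb10 is set apart by castrated sample 4 alone.

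Peg10 (ENSMUSG00000092035, chromosome 6, 4747306 to 4760517, plus strand, mm10) had 0.258 and 1.68 rescaled CPM in intact samples 1 and 2, and castrated samples 1 to 4 had 40.0, 35.8, 34.9 and 14.9. Castrated samples 1 to 3 were close to each other, sample 4 was the lowest of them, and no intact sample came near. Group means were 0.968 ± 1.01 (SD, n = 2) and 31.4 ± 11.2 (n = 4), and the log2 difference was 4.54 (3.26 to 5.83), which is 23.3-fold. The reads behind it were 11 and 96 in the intact pair and 2106, 1995, 1987 and 923 in the castrated samples, a ratio per read counted of 29.8 (24.6 to 36.4). Neither interval takes account of the choice of Peg10 by this same difference, so neither is a test. The fold depended on which intact sample stood for the group: 13.7 without intact sample 1 and 39.6 without intact sample 2.

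Because human PEG10 is known from neuroendocrine tumours, the levels of 9 neuroendocrine markers (such as Chga and Syp) are given beside it. Their sum was 12.9 and 45.4 rescaled CPM in the intact samples and 4.73 to 12.3 in the castrated samples, and Neurod1 had 0 reads in all samples but intact sample 2. The markers did not all go one way: Insm1, named after its values were seen, had 4 and 9 reads in intact samples 1 and 2, and castrated samples 1 to 4 had 13, 17, 2 and 18. Neutrophil markers (5 genes, such as S100a8) did go with the groups, with sums of 29.7 and 68.0 in intact and 200 to 353 in castrated samples, and basal markers (8 genes, such as Krt5) summed to 3847 and 4302 in intact and 925 to 3892 in castrated samples. The part of these in the Peg10 difference was not tested. In these bulk samples, more cells that express a gene and more RNA per cell cannot be told apart.

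Sgce encodes epsilon-sarcoglycan, a transmembrane protein linked to the dystrophin complex, and is paternally expressed like Peg10. It lies head to head with Peg10 on the opposite strand (chromosome 6, 4674350 to 4747207), with 99 bases between the gene bodies. It had 3.35 and 6.23 rescaled CPM in intact samples 1 and 2, and castrated samples 1 to 4 had 15.5, 11.7, 10.04 and 8.56. Every castrated value lay above both intact values, and castrated sample 1 was highest for both genes and castrated sample 4 lowest of the castrated samples for both. The means were 4.79 ± 2.04 (n = 2) and 11.5 ± 3.01 (n = 4), and the log2 difference was 1.20 (0.46 to 1.94), or 2.30-fold, with an adjusted p of 0.118. That misses the threshold in limma and in edgeR (0.151), and passes in DESeq2 (0.0109) and in limma with sample weights (0.0441). Leaving out each sample in turn gave 0.80 to 1.60, and 0 of those 6 fits called it. Smooth muscle markers (8 genes, such as Acta2 and Myh11) summed to 264 and 268 in the intact pair and 330 to 525 in the castrated samples. Their part in the Sgce values was not tested.

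The other genes within 500 kb of Peg10 were Col1a2, Casd1, Ppp1r9a, Pon1 and Pon3. Of the 5 tested neighbours, Sgce included, 1 rose and 0 fell by limma, where 0.698% and 1.27% of all tested genes did. The gene that rose was Ppp1r9a, which encodes neurabin, a protein that ties protein phosphatase 1 to actin, and which is listed as maternally expressed. It lies 142400 bases from Peg10 on the same strand (chromosome 6, 4902917 to 5165661). Its rescaled CPM was 26.4 and 35.5 in the intact pair and 60.1, 78.6, 65.4 and 73.3 in the castrated samples, with no overlap. It rose from 30.9 ± 6.39 (n = 2) to 69.3 ± 8.19 (n = 4), a log2 difference of 1.16 (0.77 to 1.55), or 2.23-fold, with an adjusted p of 0.0262. Unlike Peg10, it had its lowest castrated value in sample 1. edgeR (adjusted p = 0.0386) and DESeq2 (2.16e-07) also called it. With 1 sample left out the call held in 1 of 6 fits, without castrated sample 4, and the adjusted p reached 0.193 in the other 5.

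The remaining neighbours showed smaller or overlapping differences. Casd1, which encodes a sialic acid O-acetyltransferase, had 52.8 and 54.6 rescaled CPM in intact and 60.8 to 72.5 in castrated samples, a log2 difference of 0.30 (0.04 to 0.55) with an adjusted p of 0.245. Pon3, a paraoxonase gene, differed by 0.24 (-0.26 to 0.74) and the collagen gene Col1a2 by -0.68 (-1.77 to 0.41), with overlapping groups in both. Pon1 had 0 to 2 reads per sample and was not tested. Within this window the castrated samples lay above the intact ones for Sgce, Peg10, Ppp1r9a and Casd1, with log2 differences from 0.30 to 4.54. Of all tested genes, 13.4% had groups apart in this direction. Peg10 is the gene by which the window was chosen, and limma called neither Sgce nor Casd1.

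**Figure D2:**
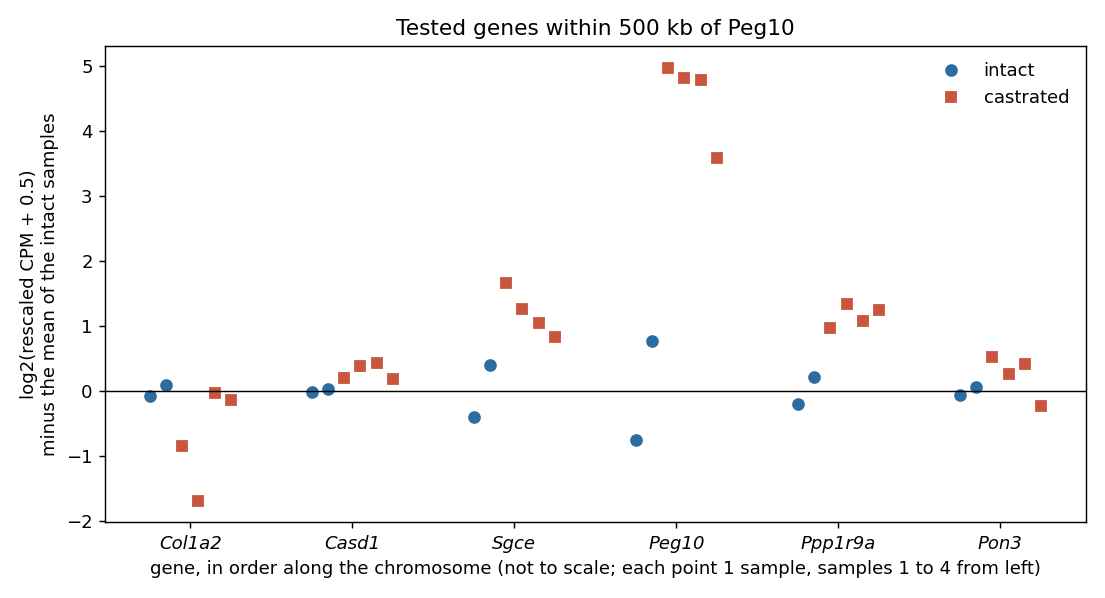
log2(rescaled CPM + 0.5) of the tested genes within 500 kb of Peg10, minus the gene's own mean over the intact samples (y axis), with the genes in chromosome order (x axis, not to scale), circles for intact and squares for castrated samples. The 4 castrated samples lie above both intact samples for Casd1, Sgce, Peg10 and Ppp1r9a, by far the most for Peg10, and overlap them for Col1a2 and Pon3.

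Around the other 8 members, 58 tested genes lay within 500 kb, each counted once. limma and edgeR called 0 of them and DESeq2 called 1, where limma called 1.97%, edgeR 1.46% and DESeq2 9.31% of all genes. At an unadjusted p under 0.05, 2 were higher and 5 lower, where 7.84% and 8.06% of all tested genes were. The windows of H19, Igf2 and Cdkn1c overlap on chromosome 7.

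The growth factor axis holds Igf2, its clearing receptor Igf2r, and H19, the noncoding RNA that shares an imprinted domain and enhancers with Igf2. Igf2, a fetal growth factor (chromosome 7, 142650766 to 142666816, minus strand), had 2.01 and 4.25 rescaled CPM in the intact samples and 3.69, 2.10, 1.72 and 2.16 in the castrated samples. The groups overlapped, with a log2 difference of -0.29 (-1.16 to 0.59) and an adjusted p of 0.775, and without intact sample 2 the sign turned to 0.17. Of the exon bases of Igf2, 62.8% are shared on the same strand with the GENCODE M21 gene model Gm49394. That model was not among the deposited genes found within 500 kb of Igf2, so whether it affected the count of Igf2 is not known.

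H19 (chromosome 7, 142575529 to 142578143, minus strand) was low in every sample. It had 0.421 and 0.210 rescaled CPM in the intact samples and 2.43, 0.969, 0.545 and 1.84 in the castrated samples. The values of the castrated samples were all above the intact ones, although they spread 4.47-fold among themselves, and castrated sample 1 was the highest. The means were 0.316 ± 0.150 (n = 2) and 1.45 ± 0.851 (n = 4), and the log2 difference was 1.16 (0.06 to 2.25) with an adjusted p of 0.287. On reads, 18 and 12 in intact and 128, 54, 31 and 114 in castrated samples, the ratio was 4.96 (3.41 to 7.47). Of its exon bases, 3.41% are shared with the microRNA gene and 5.73% lie opposite other models. edgeR gave an adjusted p of 0.219 and DESeq2 of 0.0553, and without castrated sample 1 or 4 the gene fell below the filter. All 7 skeletal muscle markers (such as Myh1 and Ckm) were highest in castrated sample 1, where their sum was 14.5 rescaled CPM against 1.43 or less in the other samples. Their part in the H19 value of that sample was not tested.

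Igf2r (chromosome 17, 12682406 to 12769664, minus strand) encodes the cation-independent mannose 6-phosphate receptor, which takes up Igf2 for breakdown and carries lysosomal enzymes. It was the most abundant member, at 165 and 179 rescaled CPM in the intact samples and 125, 137, 148 and 173 in the castrated samples. Castrated sample 4 lay between the intact values and the other castrated samples below them. The log2 difference was -0.25 (-0.59 to 0.09) with an adjusted p of 0.471. Airn, the paternally expressed antisense RNA that silences Igf2r in cis in most mouse tissues, had 3.61 and 3.88 in intact and 1.86 to 3.09 in castrated samples, with a log2 difference of -0.42 (-0.996 to 0.16) and an adjusted p of 0.473. Airn was named after its values were seen.

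Grb10, an adaptor that dampens insulin and Igf1 receptor signalling (chromosome 11, 11930508 to 12038683, minus strand), had 8.68 and 10.6 rescaled CPM in intact samples 1 and 2, and castrated samples 1 to 4 had 7.64, 10.1, 8.56 and 31.5. Castrated sample 4 alone stood out, and the other 3 castrated samples fell around the intact ones. The log2 difference was 0.32 (-0.997 to 1.63) with an adjusted p of 0.849, and it was -0.13 without castrated sample 4.

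The wider Igf axis was searched through 16 further genes, of which 13 were tested. Igfbp3, a secreted binding protein for Igf1 and Igf2, rose, and 0 of the 13 fell by limma, where at an unadjusted p 1 was higher and 2 were lower. It had 51.6 and 85.9 rescaled CPM in the intact samples and 140, 203, 198 and 181 in the castrated samples, a log2 difference of 1.42 (0.85 to 1.98) with an adjusted p of 0.0434. The call is close to the threshold: 10 of 13 other settings kept it, and 1 of 6 fits with a sample left out. edgeR called 0 of the 13. DESeq2 called Igfbp3 higher, and Igf1 and Igfbp6 lower, which are named here after their values were seen. Igf1, the postnatal growth factor, had 54.7 and 50.2 in intact and 13.4, 18.3, 15.9 and 37.8 in castrated samples, a log2 difference of -1.40 (-2.32 to -0.47) with a limma adjusted p of 0.140 and a DESeq2 adjusted p of 0.0256. Igfbp6, a binding protein that prefers Igf2, had 56.3 and 78.5 in intact and 22.8, 25.1, 24.0 and 39.0 in castrated samples, with a limma adjusted p of 0.0621. Both had non-overlapping groups, and in both castrated sample 4 was nearest to the intact samples. The median of the 13 was -0.00. Of all tested genes, limma called 0.698% higher and 1.27% lower, and 7.84% and 8.06% were so at an unadjusted p under 0.05. edgeR called 1.46% of all tested genes and DESeq2 9.31% of the genes it adjusted. Groups were apart with castrated samples lower in 13.2% of all tested genes.

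Cdkn1c encodes p57, an inhibitor of cyclin-dependent kinases (chromosome 7, 143458339 to 143461050, minus strand). It had 8.12 and 6.17 rescaled CPM in the intact samples and 8.75, 11.6, 7.49 and 6.67 in the castrated samples. The groups overlapped, with a log2 difference of 0.24 (-0.36 to 0.83) and an adjusted p of 0.715. Of its exon bases, 30.7% lie opposite the gene model Gm44732. Kcnq1ot1, the paternally expressed antisense RNA of the Cdkn1c domain, read from the strand opposite Kcnq1, had 7.80 and 6.58 in intact and 7.78 to 10.4 in castrated samples, with an adjusted p of 0.371. It was named after its values were seen.

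Plagl1 (Zac1), a zinc finger transcription factor that regulates other imprinted genes and can halt the cell cycle (chromosome 10, 13060504 to 13131694, plus strand), had 9.43 and 9.41 rescaled CPM in the intact samples. The castrated samples had 12.0, 18.5, 9.07 and 26.2. The intact pair was almost equal, and the castrated samples ran from just below it to 2.89 times their own lowest value, with sample 4 highest as for Grb10. The log2 difference was 0.66 (-0.29 to 1.61) with an adjusted p of 0.497.

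Meg3, a maternally expressed noncoding RNA of the Dlk1-Dio3 domain (chromosome 12, 109541001 to 109571726, plus strand), went the other way from Peg10. It had 7.49 and 10.9 rescaled CPM in intact samples 1 and 2, and castrated samples 1 to 4 had 2.45, 2.62, 4.57 and 6.52. All castrated values lay below both intact values, with castrated sample 4 the nearest. The means were 9.22 ± 2.44 (n = 2) and 4.04 ± 1.91 (n = 4), and the log2 difference was -1.17 (-2.12 to -0.21) with an adjusted p of 0.212. Without castrated sample 4 the adjusted p was 0.0484, a call made where 7.63% of all genes were called. Rian, a noncoding RNA read from the same strand downstream of Meg3, had 4.87 and 8.74 in intact and 2.00, 1.38, 2.16 and 5.01 in castrated samples, a log2 difference of -1.29 (-2.39 to -0.19) with an adjusted p of 0.231. It shares the domain with Meg3 and is no separate replicate of it. Of the exon bases of Meg3, 6.79% lie opposite the gene model Gm26906. Fibroblast markers (10 genes, such as Dcn and Pdgfra) summed to 1784 and 1918 in intact samples 1 and 2, and castrated samples 1 to 4 had 1061, 864, 1420 and 2026. Their part in the Meg3 values was not tested.

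Peg3, a paternally expressed zinc finger gene (chromosome 7, 6703892 to 6730431, minus strand), was below the filter and was not tested. It had 0 and 71 reads in the intact samples and 15, 26, 21 and 36 in the castrated samples, which is 0, 1.24, 0.285, 0.467, 0.369 and 0.581 rescaled CPM. The intact samples were the lowest and the highest of the 6. The read ratio of castrated to intact was 0.628 (0.458 to 0.865), and it depends on intact sample 2 for all of the intact reads.

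Per kilobase of exon, the order of the members differed between the groups. In the intact samples Igf2r led at 18.5 ± 1.06 rescaled CPM per kb (n = 2), then Cdkn1c at 3.51 ± 0.676, Plagl1 at 1.20 and Grb10 at 1.06 ± 0.152, and the last pair differed by less than the SD of Grb10. Igf2 (0.547), Meg3 (0.510) and Sgce (0.451) followed with overlapping ranges, and Peg10 (0.145), H19 (0.128) and Peg3 (0.0466) were lowest, also with overlapping ranges. In the castrated samples Igf2r still led at 15.7 ± 2.23 (n = 4). Peg10 came next at 4.71 ± 1.69, with a range of 2.24 to 6.01 that overlapped that of Cdkn1c (3.27 to 5.69). Plagl1 (2.10), Grb10 (1.59), Sgce (1.08), H19 (0.588), Igf2 (0.423) and Meg3 (0.223) followed, each overlapping the next, and Peg3 was lowest at 0.0319. Peg10 thus moved from rank 8 to rank 2, which describes the difference by which it was chosen.

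The question of whether other imprinted genes moved with Peg10 was put to 56 further genes. They are listed as imprinted, 27 as paternally and 29 as maternally expressed, but whether each is imprinted in prostate was not measured. Of these, 34 passed the filter and 4 had 0 reads in every sample. limma called 1 higher, Ppp1r9a, and 0 lower, against 0.698% and 1.27% of all tested genes. At an unadjusted p under 0.05, 2 were higher and 3 lower, where 7.84% and 8.06% of all tested genes were. edgeR called 1 (Ppp1r9a) and DESeq2 called 2 higher and 1 lower, where edgeR called 1.46% and DESeq2 9.31% of all genes. The differences were positive in 20 and negative in 14, from -1.44 to 1.47, with a median of 0.10. Among the 15 tested paternally expressed genes, the class of Peg10, limma called 0, 1 was higher at an unadjusted p, edgeR called 0 and DESeq2 1. The most abundant of them hardly differed between the group means: Peg13, a noncoding RNA, differed by 0.02, Impact, a regulator of the Gcn2 kinase, by 0.15, and Inpp5f, an inositol phosphatase, by 0.11 on the log2 scale.

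Genes with an unadjusted p under 0.05 are named here after their values were seen. Kcnq1, a potassium channel gene of the Cdkn1c domain, had 52.1 and 104 rescaled CPM in intact and 20.5, 40.7, 23.2 and 26.5 in castrated samples, a log2 difference of -1.44 (-2.28 to -0.60) with a limma adjusted p of 0.104 and a DESeq2 adjusted p of 0.00138. Rasgrf1, a Ras exchange factor gene, had 0.328 and 0.822 in intact and 3.67, 2.30, 4.47 and 0.727 in castrated samples, with a difference of 1.47 (0.08 to 2.87), a limma adjusted p of 0.285 and a DESeq2 adjusted p of 0.0441. Rasgrf1 was lower in castrated sample 4 than in castrated samples 1 to 3, and in sample 4 it reached back into the intact range. Tfpi2, a protease inhibitor gene, had 1.85 and 1.78 in intact and 0.190 to 1.32 in castrated samples, with a difference of -1.22 (-2.25 to -0.19) and an adjusted p of 0.228.

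**Figure D3:**
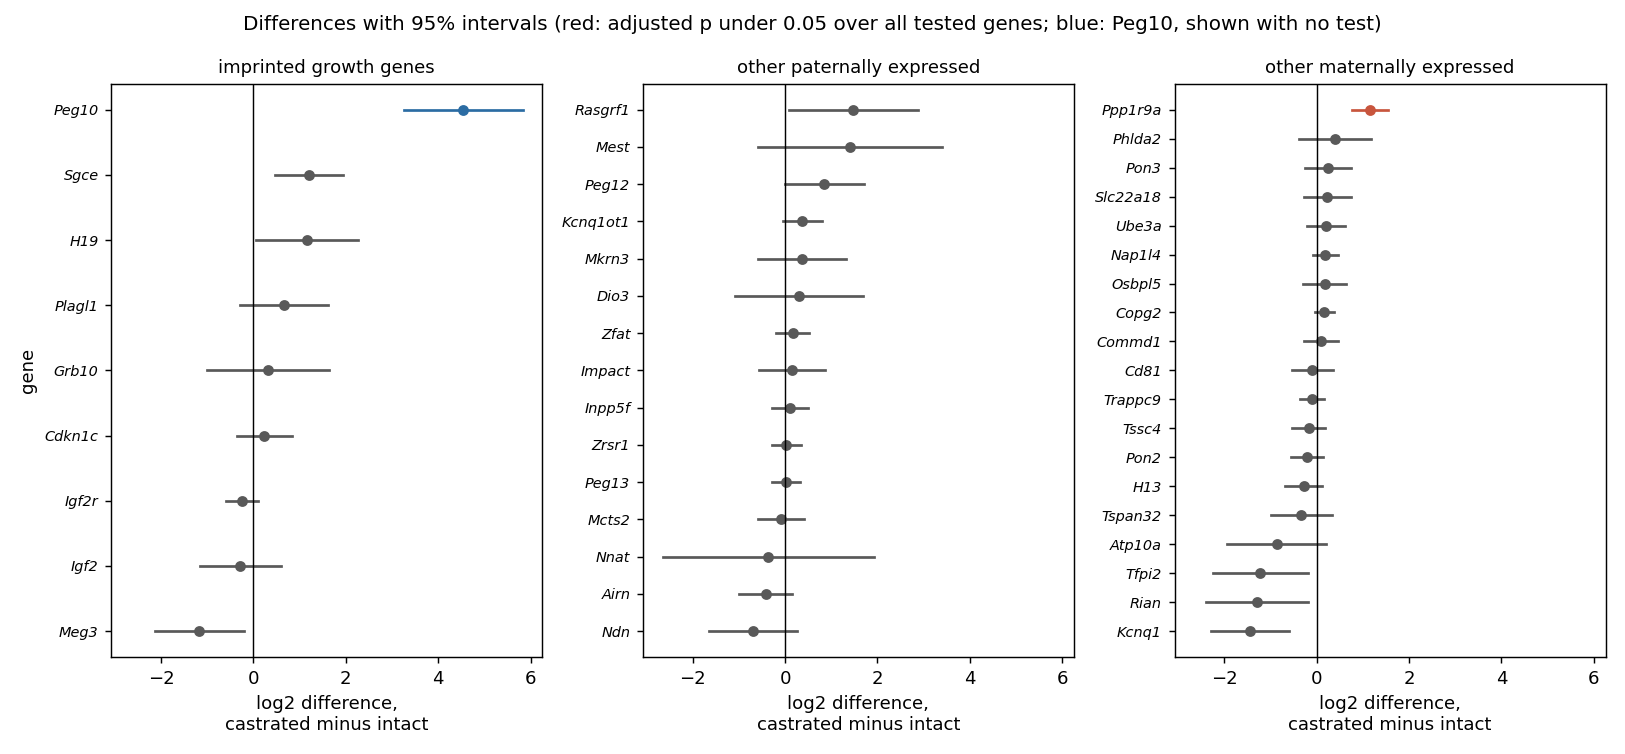
Log2 difference, castrated minus intact (x axis), with its 95% interval for the 9 tested growth genes and the 34 other tested imprinted genes (y axis), in panels by list. Peg10 at 4.54 is in blue and shown with no test, Ppp1r9a at 1.16 is the red point, and the other genes spread on both sides of 0 between -1.44 and 1.47.

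Several imprinted genes had 1 sample that stood above the others, and the samples differed in their cell markers as well. The genes in this and the next paragraph that are no members were named after their values were seen. In intact sample 2 Peg3 was highest, and so were Ndn at 9.95 rescaled CPM, against 2.67 to 4.29 in the others, and Nnat at 4.42 against 1.58 or less. Nap1l5 had 3.97 there and 0.197 or less elsewhere, and Ddc, which encodes the enzyme of the last step to dopamine and serotonin, had 6.70 against 0.105 to 0.646. These are genes known from neural and endocrine cells, and 8 of 9 neuroendocrine markers were highest in that sample too. Their part was not tested.

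In castrated sample 4 Grb10, Plagl1 and Impact (40.4 rescaled CPM against 18.5 to 22.6 in the others) were highest, and so was Dio3, which encodes the deiodinase that inactivates thyroid hormone, at 11.4 against 2.19 to 6.48. That sample had the lowest luminal sum (4428) and the highest fibroblast sum (2026), with 5 of 10 fibroblast, 4 of 7 endothelial and 5 of 7 macrophage markers at their highest. Mest, a paternally expressed gene known from growing adipose tissue, had 9.46 in castrated sample 3 and 0.375 to 3.00 elsewhere, and 4 of 5 adipocyte markers were highest in that sample, with a sum of 43.6 against 6.74 to 36.3. The part of these markers was not tested. Over the 43 tested imprinted genes, members included, 4 and 9 were highest in intact samples 1 and 2, and 11, 5, 5 and 9 in castrated samples 1 to 4. Of all tested genes, 17.2%, 14.0%, 23.7%, 8.61%, 12.7% and 23.8% were highest in these samples. Every gene is highest in some sample, so these counts alone do not mark out imprinted genes.

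**Figure D4:**
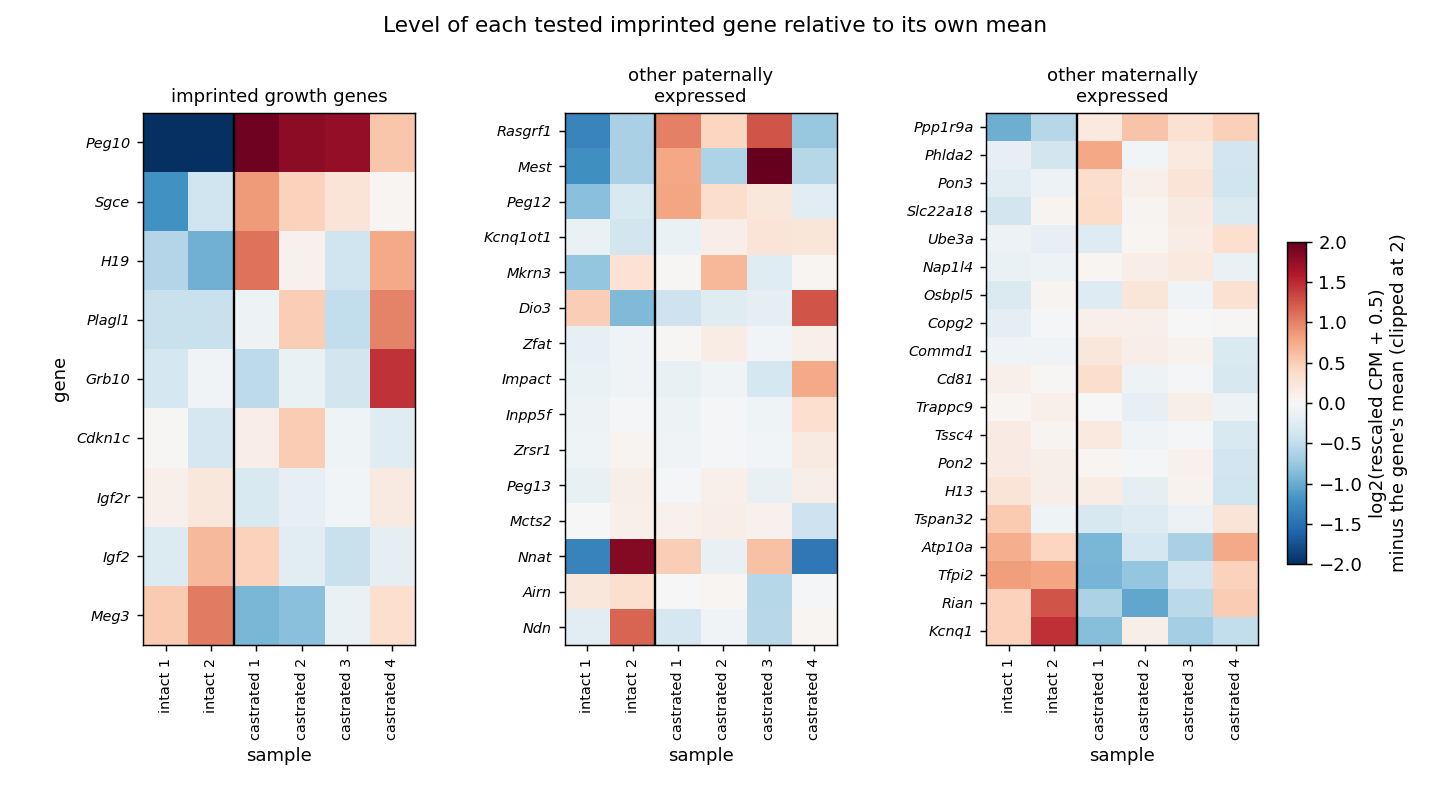
log2(rescaled CPM + 0.5) minus the gene's own mean over the 6 samples (colour, clipped at 2) for the tested imprinted genes (rows), by sample (columns), with a line between intact and castrated samples. The Peg10 row splits at the line, the Grb10, Impact and Dio3 rows are highest in castrated sample 4, and Nnat and Ndn are highest in intact sample 2.

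Genes related to the members by descent or by complex were searched as well. Of 10 measured gag-derived relatives of Peg10, 6 were tested. limma called 0, 0 had an unadjusted p under 0.05, edgeR called 0 and DESeq2 1, Zcchc5, where limma called 1.97%, edgeR 1.46% and DESeq2 9.31% of all genes. The most abundant were Ldoc1l (0.22), Cxx1b (-0.06) and Cxx1a (0.14 on the log2 scale), with overlapping groups in each. Zcchc5, named after its values were seen, had 5 and 3 reads in intact samples 1 and 2, and castrated samples 1 to 4 had 156, 26, 131 and 3, and its limma adjusted p was 0.465. Castrated samples 1 to 3 were thus above the intact samples and castrated sample 4 was not. Peg10 was also lowest of the castrated samples in sample 4, but so were Pon3 and Grb7, while Grb10 and Dio3 were highest there. The share of all genes with a low sample 4 was not counted, so this is no likeness particular to Peg10. These genes are near-copies in part, and reads between Cxx1a and Cxx1b in particular are uncertain.

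Of 7 genes of the sarcoglycan complex, the partners of Sgce, 3 were tested and 0 called by limma, edgeR or DESeq2, with 0 at an unadjusted p under 0.05. Dag1, which encodes dystroglycan, had 328 and 403 rescaled CPM in intact and 231 to 416 in castrated samples. Sspn differed by 0.02 and Sgcb by -0.16 on the log2 scale, with overlapping groups. Of 6 relatives of the other members, 5 were tested and again 0 called by limma, edgeR or DESeq2, with 0 at an unadjusted p under 0.05. Among them Grb7, an adaptor of the Grb10 family, differed by 0.12, Cdkn1a, which encodes the kinase inhibitor p21, by -0.24 and Plagl2 by -0.01. The Plagl2 difference turned positive with CPM as deposited (0.04). Over all genes, limma called 1.97%, edgeR 1.46% and DESeq2 9.31%, so 0 calls in lists this short say little.

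The genes most like Peg10 across the 6 samples were ranked by Pearson's r of log2(rescaled CPM + 0.5) among 11147 genes with a mean of at least 5. They were Wdr72 (0.994), a WD repeat gene known from tooth enamel, Ttc19 (0.994), an assembly factor of mitochondrial complex III, Zfp2 (0.993), a zinc finger gene, Atp6v0d2 (0.992), a subunit of the vacuolar proton pump, and Bend7 (0.991). Both groups drive these values, since the 6 points share the same difference between intact and castrated samples, so they are a description. Atp6v0d2 had 0.562 and 2.80 rescaled CPM in intact and 38.0, 47.8, 55.8 and 14.4 in castrated samples, and Wdr72 had 0.421 and 2.20 in intact and 17.7, 16.5, 21.5 and 9.09 in castrated samples. As for Peg10, intact sample 1 was the lowest of the 6 and castrated sample 4 the lowest of the castrated samples in both. Of the members, Sgce came nearest to Peg10 at 0.952, with 111 genes above it, and the others ranged from 0.653 for H19 to -0.81 for Meg3.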

How the data were processed

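The authors deposited CPM, counts per 1000000 reads counted in genes, for 24421 gene symbols in each of 6 samples. The submitters' processing notes name TopHat2, HTSeq, edgeR and build mm10, with no versions; strand use and filters were not stated there. All values (100% in each sample) were whole multiples of the smallest one, to within 1e-06, so reads were recovered. Size factors by the median-of-ratios method (0.978 to 1.05) were used to rescale the CPM. A gene entered the test with 1 CPM or more, as deposited, in 2 or more samples. The test was limma 3.58.1 in R 4.3.3 with a mean-variance trend, on log2(rescaled CPM + 0.5), two-sided, with Benjamini-Hochberg adjustment over 13898 genes. Alternatives were edgeR 4.0.16 and DESeq2 1.42.0 on the reads, and changes of pseudocount, filter, scaling, moderation, weights and samples. The limma, edgeR and DESeq2 fits at their main settings were checked on simulated counts with known changes, and the other steps were not. Those counts had the same dispersion for every gene and no outlying sample, so the check does not cover the uneven spread of these data. Positions and exon overlaps are from GENCODE M21 (GRCm38), matched for 23334 symbols.

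The members and lists were chosen with earlier results of these data known. The text names all 10 members, the called genes of each other list or otherwise the 3 with the highest mean, the 5 genes most like Peg10, and its neighbours within 500 kb. Other genes are said to be named after their values were seen. Some genes and markers are not reported here and are in no marker sum. The labels name no sequencing batch. Correlations between samples were 0.941 to 0.988, and castrated sample 4 correlated least with castrated sample 1 (0.941). Whether same-numbered intact and castrated samples are paired cannot be told from their deviations, because those of 2 intact samples mirror each other.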

Additional observations from a re-analysis of the deposited data

Results flagged for a closer look

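Among the 47 named genes, 7 had a castrated sample whose gap to the nearest other castrated sample, divided by the range of the 4, exceeded Dixon's critical value at 95%. Chance flags about 1 in 20 groups when genes are chosen without regard to their values. Some of the 47 were named after their values were seen, and several flags share castrated sample 4. That rate is therefore no standard for the 7. In castrated sample 4, Grb10 at 31.5 rescaled CPM, Dio3 at 11.4, Inpp5f at 21.6, Sgcb at 9.17 and Igfbp6 at 39.0 stood above the other castrated samples. Airn was low in castrated sample 3 at 1.86, and Nap1l5 was high in castrated sample 2 at 0.197, where the other castrated samples had 0 reads.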

How the results depend on the processing

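A count of 0 allows 0.0507 to 0.0687 CPM, which limits what can be said of Peg3, and the intact group has 2 samples. The count of genes called was 274 (97 higher, 177 lower), and it was 170 with no filter, 954 with array weights (420 higher, 534 lower), 1293 by DESeq2 (662 higher, 631 lower) and 203 by edgeR (54 higher, 149 lower). With CPM as deposited it was 249 (100 higher, 149 lower). It ran from 1 without intact sample 2 (9 without intact sample 1) to 1052 without castrated sample 4, and was 78, 83 and 46 without castrated samples 1, 2 and 3. Members called, Peg10 included, were 2 with array weights, 0 by edgeR and 2 by DESeq2, and 0 to 2 with each castrated sample left out. Peg10 was chosen by this contrast, so its own calls in these counts are a description only. Other imprinted genes called were 3 with array weights and 3 by DESeq2, and 0 to 5 with each sample left out. Over 828 alternative fits of 44 named genes, 742 kept the direction and the side of the threshold, 25 passed it newly, 33 lost it and 28 turned in sign.

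Replicate numbers are shared between the groups, and same-numbered samples correlated at 0.0754 and 0.226 in their deviations, over 2 pairs. The deviations of 2 intact samples mirror each other, so these values cannot show whether the numbers pair samples. With the replicate number as a block, 417 genes (176 higher, 241 lower), 1 member, which was Peg10 itself, and 2 other imprinted genes were called. The block turned the sign of Grb10 (-0.12), Impact (-0.0058), Dio3 (-0.13) and Sspn (-0.013).

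Sspn was also -0.071 with array weights, and Plagl2 was 0.041 with CPM as deposited, 0.014 after quantile normalization, 0.00077 by edgeR and 0.0036 by DESeq2. With each sample left out, differences crossed 0 for Igf2 (-0.75 to 0.17), Grb10 (-0.13 to 0.52), Peg13 (-0.11 to 0.16), Impact (-0.088 to 0.28), Nnat (-1.96 to 1.22), Dio3 (-0.39 to 0.99), Ldoc1l (-0.35 to 0.78), Sgcb (-0.39 to 0.053), Sspn (-0.24 to 0.27), Grb7 (-0.055 to 0.29), Cdkn1a (-0.52 to 0.030) and Plagl2 (-0.082 to 0.067). The cause was not tested. H19, Mest and Zcchc5 gave no value in 2 of the 6 fits with a sample left out, nor Tfpi2 and Zcchc5 with a filter on mean CPM, because they were below the filter there.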
